A study of Arabidopsis thaliana with 9 samples.

Results

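The chloroplast keeps a small genome of its own, and 73 of the 20777 Arabidopsis thaliana loci with deposited values carry a chloroplast identifier, one that starts with ATCG. All 73 are described here. Membership was set by identifier alone, but the group was chosen with earlier results of these data known. The values come from 9 Affymetrix ATH1 arrays, 3 biological repeats for each of 3 genotypes in the Col-0 background. The genotypes were a line carrying extra BRI1, a line labelled 35S::AVP1, and wild type. BRI1 is the receptor for brassinosteroid hormones, AVP1 is a proton pump of the vacuole, and 35S is a viral promoter that is active in most plant tissues. The labels of the BRI1 line give its promoter both as pBRI1 and as 35S, so the promoter is left open. The sources used here do not say whether a line stands for 1 transformant or several. Plants were kept on MS medium at 22 °C in 16 h days and 8 h nights, and their vegetative part was harvested when they had reached stage 1.03. A level is the deposited log2 RMA value, so a difference of 1 is a 2-fold difference. A locus was called when its limma p, adjusted by Benjamini-Hochberg over all 20777 loci, was under 0.05, and intervals are 95% intervals of the same fit.

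Chloroplast genes encode core subunits of both photosystems, of the cytochrome b6f complex, of the ATP synthase and of the NDH complex, the large subunit of Rubisco, and part of the plastid ribosome. They are read by a bacterial-type RNA polymerase, whose core is itself chloroplast-encoded and which is guided by nuclear sigma factors, and by a phage-type polymerase from the nucleus. Many are transcribed as operons and then cut, spliced, edited and trimmed by nuclear-encoded proteins, so the level of a chloroplast RNA depends on processing and stability as well as on transcription. ATCG numbers follow the order of the genes along the chloroplast genome, and measured loci next to each other in that order are called neighbours below. Unmeasured loci can lie between neighbours. No gene name is paired with an ATCG identifier in the files or in the gene table used here, so the loci are given by identifier, with no role.

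BRI1 was 2.73 higher in the BRI1 line than in wild type (limma adjusted p = 7.75e-08). AVP1 was not higher in the arrays labelled 35S::AVP1, where it read 12.49, 12.55 and 12.57, against 12.58, 12.59 and 12.71 in wild type. Its difference was -0.092, with an interval of -0.25 to 0.069 (limma adjusted p = 0.489), so these are called the AVP1-labelled arrays below, by their label alone. The photosynthetic gene LHCA1, which encodes a light-harvesting protein of photosystem I, read 14.2 to 14.4 on all 9 arrays. The other 3 green-tissue markers on the list (RBCS1A, LHCB1.1 and LHCB2.2) had no deposited value.

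The chloroplast loci were among the brightest on the arrays. Their mean levels over the 9 arrays ran from 6.05 to 14.2 with a median of 11.70, whereas the median of all loci was 6.40. Of the 73, 52 lay above the 95th percentile of all loci, which was 10.3, and 71 lay above the median of all loci. Probes differ in how strongly they bind, so the order of the loci is an order of array signal and not of RNA amount. The highest value of any locus on an array was 14.49 to 14.57. Whether differences or spread were narrowed close to that maximum was not tested. The brightest was ATCG00480, with 14.24, 14.27 and 14.26 in the BRI1 line, 14.13, 14.08 and 14.19 in the AVP1-labelled arrays, and 14.28, 14.24 and 14.29 in wild type. The AVP1-labelled arrays lay lowest by a narrow margin, and the difference from wild type of -0.14 was not called (limma adjusted p = 0.189). ATCG01310 followed with a mean of 14.15, ATCG00470 with 13.86 and ATCG00340 with 13.72. The arrays of ATCG00480 (14.08 to 14.29) and ATCG01310 (14.02 to 14.31) overlapped, and ATCG01310 had the higher mean in 1 of the 3 genotypes, so the order of these 2 is not settled.

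The dimmest was ATCG01010, with 6.40, 5.91 and 6.47 in the BRI1 line, 5.77, 5.69 and 6.22 in the AVP1-labelled arrays, and 6.04, 5.73 and 6.25 in wild type. All 3 genotypes overlapped at this locus. ATCG00730 had a mean of 6.31, ATCG00330 of 7.18 and ATCG00190 of 7.84, and none of these was called in any comparison. The spread between repeats was wider at dim loci. The within-genotype SD was 0.067 for the 11 loci at 13 or above, 0.10 for the 42 loci between 10 and 13, and 0.17 for the 20 loci under 10 (medians). For all chloroplast loci the median SD was 0.10, and for all loci, most of which are dimmer, it was 0.11. Among all loci by signal it was 0.058 at 13 or above and 0.090 between 10 and 13. Under 10, with the dimmest loci set aside, it was 0.11. At like signal the chloroplast loci thus had the higher median SD. Their levels shifted together on single arrays, as described below, so these SDs are not independent of each other.

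The AVP1-labelled arrays differed from wild type at 12 of the 73 chloroplast loci (16.4%, where 11.1% of all loci were called). Of these, 7 were lower (9.59%, against 4.76% of all loci) and 5 were higher (6.85%, against 6.31%). The list as a whole did not shift. Its median difference was 0.024, beside 0.049 over all loci, and 39 loci had a positive and 34 a negative difference. The differences ran from -1.44 to 1.18, and 2 of the 73 were past 2-fold, the lowest and the highest (2.74%, beside 1.8% of all loci). In RNA from the whole harvested part, fewer cells with chloroplasts and less of a transcript per cell cannot be told apart.

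**Figure D1:**
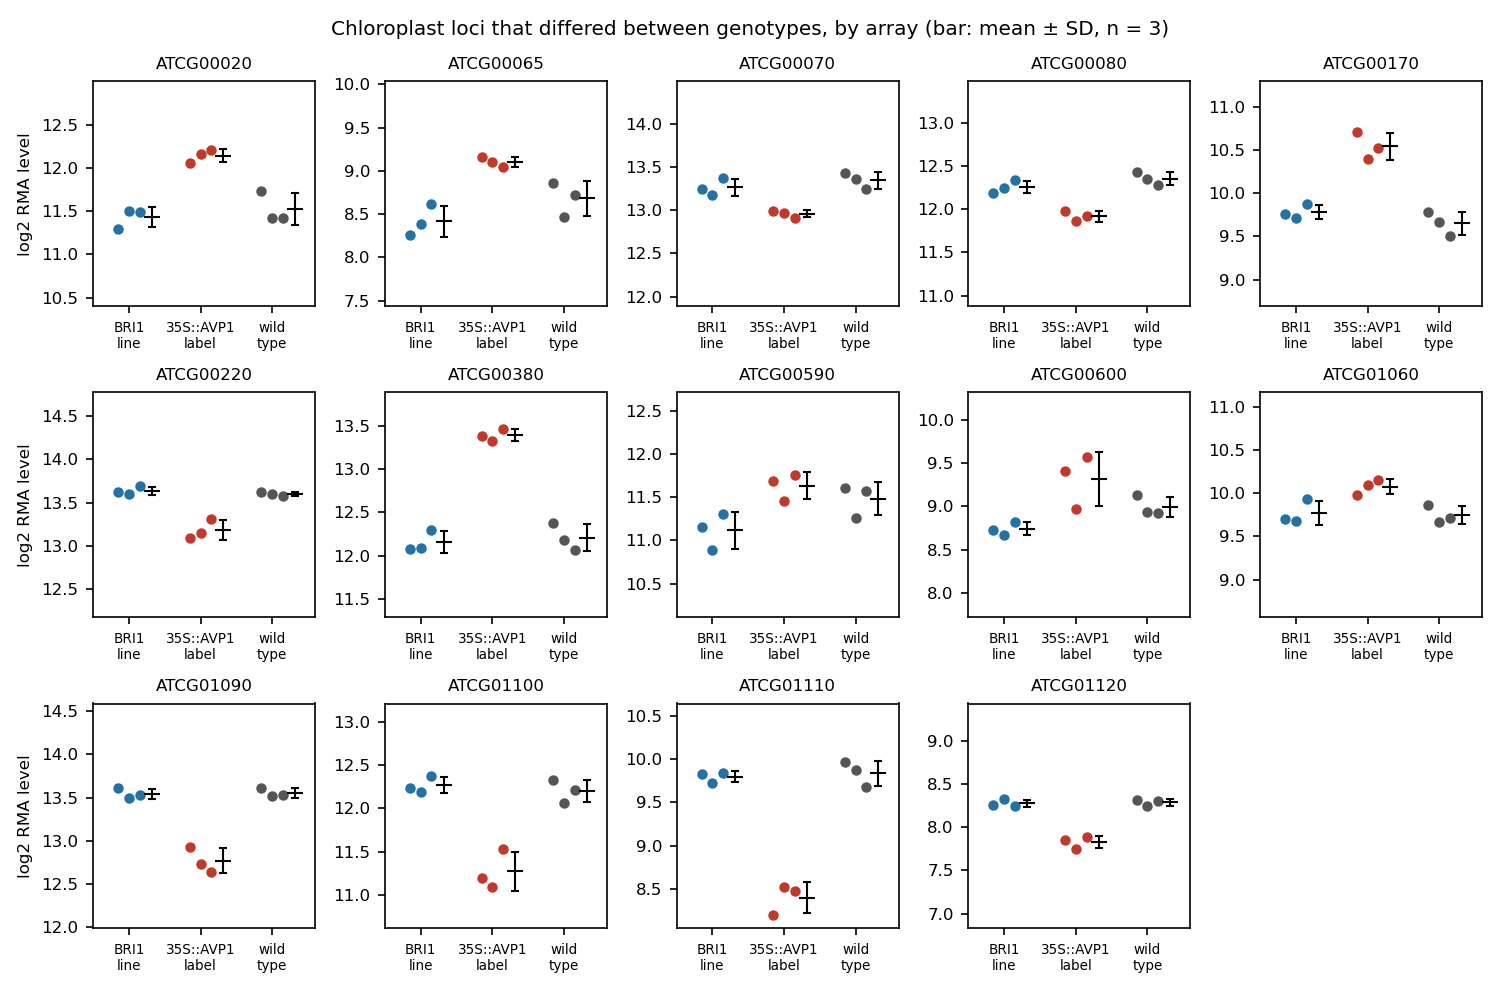
Log2 RMA level (vertical axis, with the same span in every panel) of the 14 chloroplast loci called between the AVP1-labelled arrays and wild type or the BRI1 line. Points are single arrays grouped as BRI1 line, 35S::AVP1 label and wild type, and black bars are means with SD (n = 3). At ATCG01110 the AVP1-labelled arrays sit at 8.19 to 8.52, below 9.67 to 9.96 in wild type, and at ATCG00380 they sit at 13.33 to 13.47, above 12.07 to 12.38 in wild type.

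The lowest differences came from 4 neighbouring loci. ATCG01110 read 9.83, 9.73 and 9.84 in the BRI1 line, 8.19, 8.52 and 8.48 in the AVP1-labelled arrays, and 9.96, 9.87 and 9.67 in wild type. The AVP1-labelled arrays were over 1 unit below every other array. Relative to wild type ATCG01110 fell by 1.44, which is 2.71-fold (SE 0.10, interval -1.67 to -1.21, limma adjusted p = 1.3e-05).

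ATCG01100, the locus before it, read 12.24, 12.19 and 12.37 in the BRI1 line, 11.19, 11.09 and 11.53 in the AVP1-labelled arrays, and 12.32, 12.06 and 12.22 in wild type. It fell by 0.93 (interval -1.19 to -0.67, limma adjusted p = 0.000607), with a clear gap between the AVP1-labelled arrays and the rest. ATCG01090 read 13.61, 13.49 and 13.54 in the BRI1 line, 12.93, 12.73 and 12.65 in the AVP1-labelled arrays, and 13.62, 13.52 and 13.52 in wild type. It fell by 0.79 (interval -0.97 to -0.60, limma adjusted p = 0.000177), and again only the AVP1-labelled arrays stood low. ATCG01120 read 8.26, 8.32 and 8.25 in the BRI1 line, 7.85, 7.75 and 7.89 in the AVP1-labelled arrays, and 8.32, 8.24 and 8.30 in wild type. Its fall of 0.46 was the smallest of the 4 (interval -0.60 to -0.31, limma adjusted p = 0.00138).

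The nearest measured loci on either side of this block did not fall. ATCG01080, the measured locus before ATCG01090, had a difference of 0.24 (interval 0.08 to 0.40) and was not called (limma adjusted p = 0.0572). ATCG01310, the next measured locus after ATCG01120, had a difference of 0.14 and was not called (limma adjusted p = 0.252). On both sides the nearest measured locus thus had a difference of the other sign. No locus numbered between ATCG01120 and ATCG01310 was measured, so where the fall ends on that side is not known.

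The other 3 lower loci lay elsewhere in the genome and moved less. ATCG00070 read 13.25, 13.17 and 13.37 in the BRI1 line, 12.99, 12.96 and 12.91 in the AVP1-labelled arrays, and 13.43, 13.36 and 13.24 in wild type, a fall of 0.39 (limma adjusted p = 0.00973). Its neighbour ATCG00080 read 12.19, 12.24 and 12.34 in the BRI1 line, 11.98, 11.86 and 11.92 in the AVP1-labelled arrays, and 12.43, 12.34 and 12.28 in wild type, a fall of 0.43 (limma adjusted p = 0.00355). At both loci the AVP1-labelled arrays lay below all others. ATCG00220, one of the brightest loci, read 13.62, 13.60 and 13.69 in the BRI1 line, 13.09, 13.15 and 13.31 in the AVP1-labelled arrays, and 13.62, 13.59 and 13.58 in wild type, a fall of 0.41 (limma adjusted p = 0.00464).

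Among the 5 higher loci, ATCG00380 moved most. It read 12.08, 12.09 and 12.30 in the BRI1 line, 13.38, 13.33 and 13.47 in the AVP1-labelled arrays, and 12.38, 12.18 and 12.07 in wild type. It rose by 1.18, which is 2.27-fold (SE 0.10, interval 0.97 to 1.40, limma adjusted p = 3.08e-05), and the arrays of the BRI1 line and of wild type overlapped well below. ATCG00170 read 9.76, 9.72 and 9.88 in the BRI1 line, 10.71, 10.39 and 10.53 in the AVP1-labelled arrays, and 9.78, 9.67 and 9.51 in wild type. It rose by 0.89 (interval 0.67 to 1.11, limma adjusted p = 0.000273). ATCG00020 read 11.30, 11.51 and 11.49 in the BRI1 line, 12.06, 12.16 and 12.21 in the AVP1-labelled arrays, and 11.73, 11.42 and 11.42 in wild type. It rose by 0.62 (interval 0.39 to 0.85, limma adjusted p = 0.00318), and all 3 AVP1-labelled arrays lay above the other 6.

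The remaining 2 higher loci were close to the threshold. ATCG00065 read 8.25, 8.38 and 8.61 in the BRI1 line, 9.16, 9.10 and 9.04 in the AVP1-labelled arrays, and 8.86, 8.47 and 8.72 in wild type, a difference of 0.41 (limma adjusted p = 0.0467). Its neighbour on one side is ATCG00070, which fell. ATCG01060 read 9.70, 9.67 and 9.93 in the BRI1 line, 9.98, 10.09 and 10.16 in the AVP1-labelled arrays, and 9.86, 9.66 and 9.72 in wild type, a difference of 0.33 (limma adjusted p = 0.0451). At both loci the AVP1-labelled arrays lay above wild type, but by little. Leaving out any 1 AVP1-labelled array, replicate 2 or 3 of wild type, or replicate 2 of the BRI1 line ended both calls, and leaving out replicate 1 of the BRI1 line ended that of ATCG01060. The limma adjusted p was at most 0.145 in these fits, while the other 10 loci stayed called in all 9 fits that left out 1 array.

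The other 61 chloroplast loci were not called, and their differences ran from -0.28 to 0.32, with 56 under 0.2 in size. Of all 73, 22 had AVP1-labelled arrays that did not overlap wild type (30.1%, beside 28.4% of all loci), 13 higher (17.8%, beside 18.8% of all loci) and 9 lower (12.3%, beside 9.63%). By signal, 5 of the 20 loci under 10 were called, 4 of the 42 between 10 and 13 and 3 of the 11 at 13 or above. The share of calls among all loci of like signal was not worked out, so these counts are not read further.

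**Figure D2:**
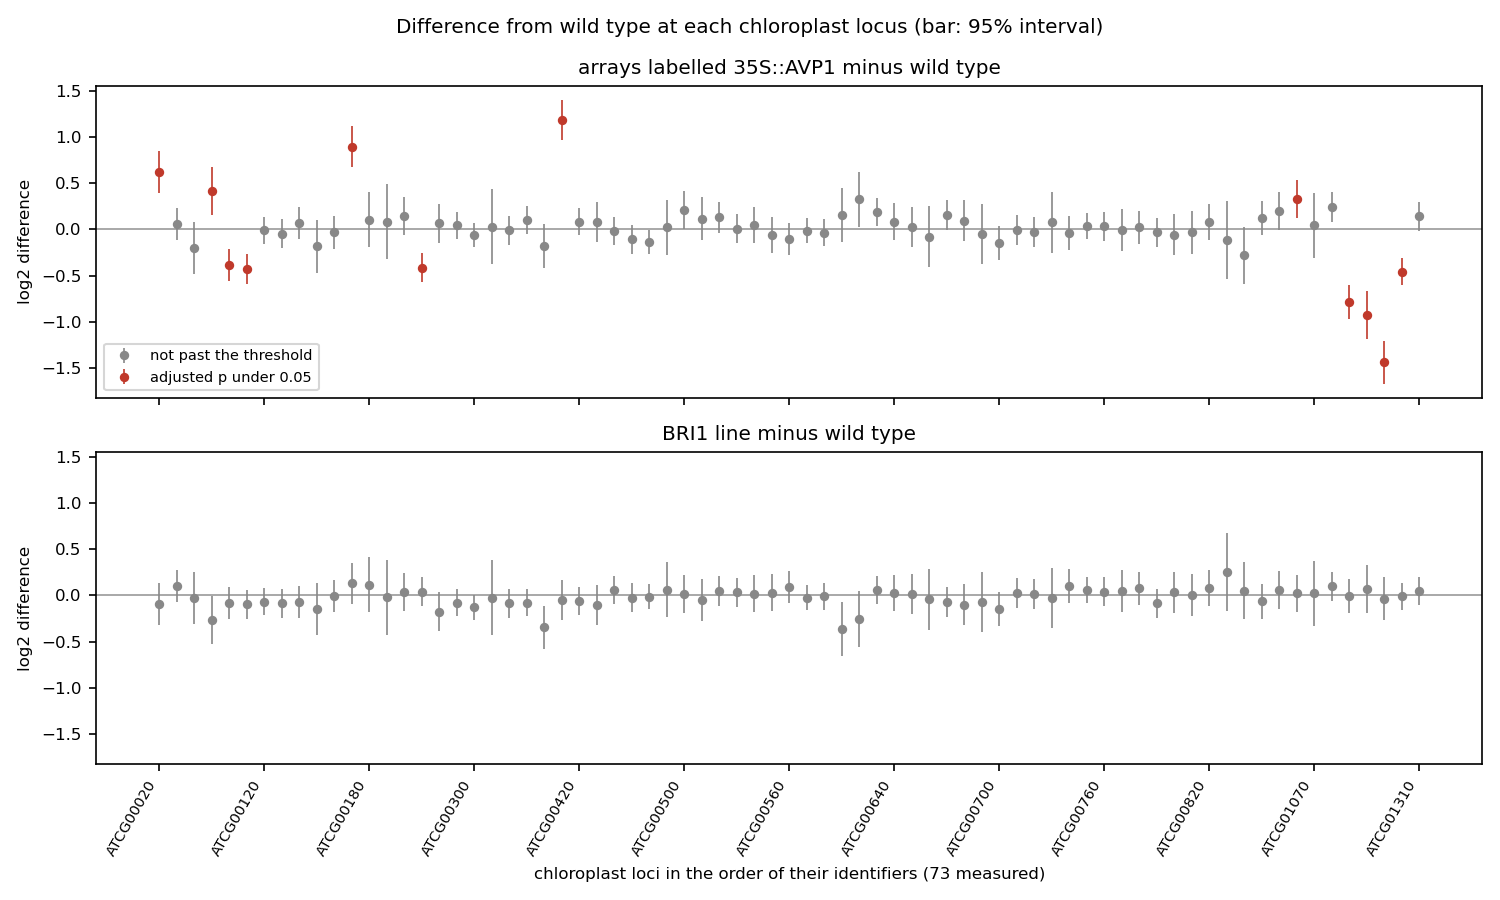
Log2 difference from wild type (vertical axis) with its 95% interval for the 73 chloroplast loci in the order of their identifiers (horizontal axis), for the AVP1-labelled arrays (above) and the BRI1 line (below). Red points have a limma adjusted p under 0.05. The upper panel holds 12 red points, with ATCG01090 to ATCG01120 as a run at -1.44 to -0.46 near its right end, and the lower panel holds 0.

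Between the BRI1 line and wild type limma called 0 of the 73 chloroplast loci (0.0818% of all loci were called), and limma with a mean-variance trend also called 0. At an unadjusted p under 0.05 there were 3 (4.11%, beside 5.3% of all loci). The differences ran from -0.36 to 0.25 with a median of -0.0090, beside -0.0078 over all loci. The intervals bound what could have been missed. For all 73 loci the interval lay within 1 unit of 0 on either side, and for 68 it lay within 0.5.

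The 3 loci with the lowest p were all lower in the BRI1 line, and none was called. ATCG00360 read 10.30, 10.16 and 10.27 in the BRI1 line, against 10.79, 10.40 and 10.58 in wild type, a difference of -0.35 (limma adjusted p = 0.645). ATCG00590 read 11.15, 10.89 and 11.30 in the BRI1 line, against 11.61, 11.26 and 11.57 in wild type, a difference of -0.36 (limma adjusted p = 0.812), and its groups overlapped. ATCG00065 had a difference of -0.27 (limma adjusted p = 0.926). Arrays of the 2 genotypes did not overlap at 4 loci (5.48%, beside 10.1% of all loci), namely ATCG00130, ATCG00300, ATCG00360 and ATCG00600, all lower in the BRI1 line (5.75% of all loci were lower in this way). The 12 loci called in the AVP1-labelled arrays differed by -0.27 to 0.13 here, and both comparisons share the wild-type arrays.

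Set directly against the AVP1-labelled arrays, the BRI1 line differed at 13 chloroplast loci (17.8%, beside 10.3% of all loci), with 7 higher (9.59%, beside 4.05%) and 6 lower (8.22%, beside 6.27%). This comparison and the one of the AVP1-labelled arrays with wild type share those arrays, so they are no separate evidence. Of the 13 loci, 11 had also been called against wild type, which is 84.6% of the 13 and 91.7% of the 12. ATCG01110 was 1.40 higher in the BRI1 line than in the AVP1-labelled arrays (interval 1.17 to 1.63, limma adjusted p = 1.63e-05), and ATCG00380 was 1.24 lower, a difference of -1.24 (limma adjusted p = 2.32e-05). At ATCG00065 the difference was -0.68 (limma adjusted p = 0.00412), and this call held in all 9 fits that left out 1 array.

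The neighbours ATCG00590 and ATCG00600 were called in this comparison and not in the others. ATCG00590 read 11.15, 10.89 and 11.30 in the BRI1 line, against 11.68, 11.46 and 11.76 in the AVP1-labelled arrays, a difference of -0.52 (limma adjusted p = 0.0322). ATCG00600 read 8.73, 8.67 and 8.82 in the BRI1 line, against 9.41, 8.97 and 9.57 in the AVP1-labelled arrays, a difference of -0.58 (limma adjusted p = 0.0232). Wild type lay between the lines in mean at both loci. The call of ATCG00590 was lost without replicate 1 or 3 of the AVP1-labelled arrays or replicate 1 or 2 of the BRI1 line (limma adjusted p up to 0.101), and that of ATCG00600 without those or replicate 3 of the BRI1 line (up to 0.0829). ATCG00070 lost its call here in 6 of the 9 fits, those without any 1 AVP1-labelled array, replicate 1 or 3 of the BRI1 line or replicate 2 of wild type (up to 0.126), and ATCG00080 lost it without replicate 2 of the AVP1-labelled arrays or replicate 3 of the BRI1 line (up to 0.0693).

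The differences of neighbouring loci were weakly correlated. Across the 72 pairs of neighbours, Pearson's r of their differences was 0.333 for the AVP1-labelled arrays against wild type, 0.331 for the BRI1 line against wild type and 0.382 for the BRI1 line against the AVP1-labelled arrays. Spearman's rho over the same pairs was lower, at 0.173, 0.323 and 0.258. Without any locus called in the first of these comparisons, Pearson's r was 0.272, 0.365 and 0.444 over 54 pairs. Loci are not independent replicates and share arrays and normalization, so these values are descriptive.

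The chloroplast loci also moved together from array to array within a genotype. Replicate 3 of the BRI1 line was the highest of its 3 arrays at 56 of the 73 loci (76.7%, beside 27.3% of all loci), and replicate 3 of the AVP1-labelled arrays at 45 (61.6%, beside 33.9%). Replicate 1 of wild type was the highest of the 3 wild-type arrays at 61 of the 73 (83.6%, beside 38.5% of all loci). The median deviations from the genotype mean were 0.073, 0.054 and 0.10 on these arrays. Nuclear genes for plastid proteins deviated by -0.041, -0.0002 and 0.0046 and mitochondrial loci by 0.020, -0.055 and -0.0074 on the same arrays.

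**Figure D3:**
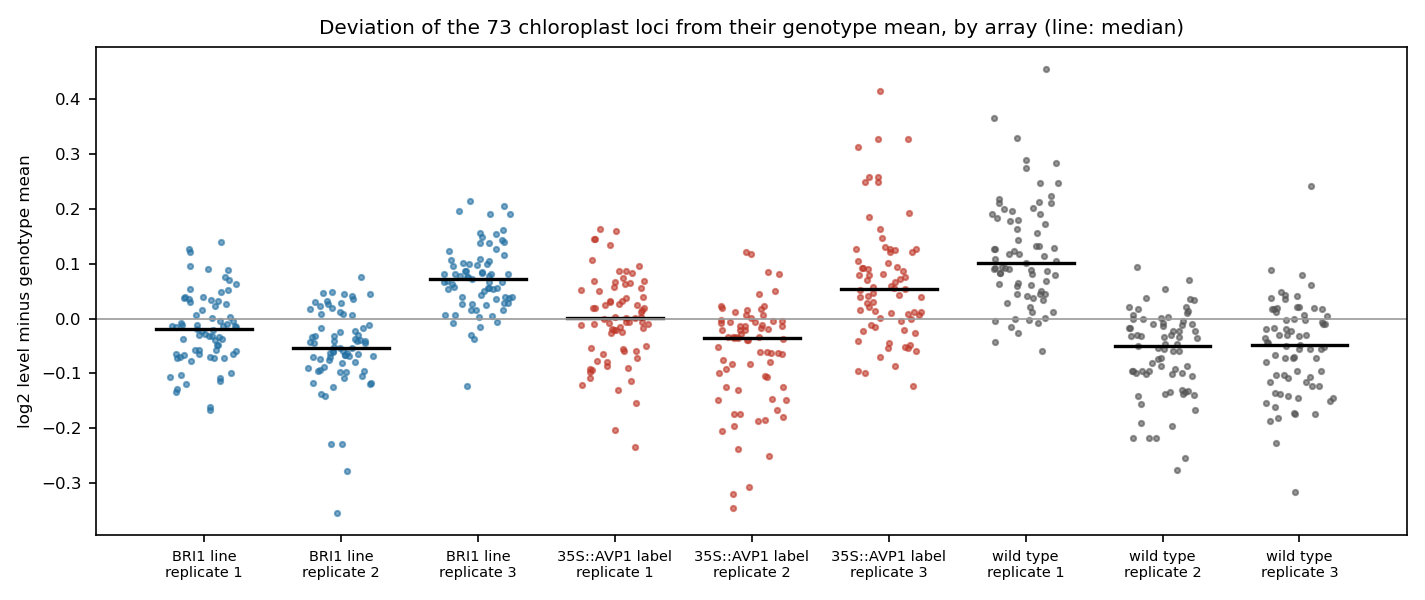
Log2 level minus the mean of its genotype (vertical axis) for the 73 chloroplast loci on each of the 9 arrays (horizontal axis), with points for loci and black lines for medians. The medians lie highest on replicate 1 of wild type (0.10) and replicate 3 of the BRI1 line (0.073).

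These shifts of single arrays were of the same order as the differences between genotypes in the median level of the chloroplast loci. That median averaged 11.66 ± 0.10 in the BRI1 line, 11.78 ± 0.11 in the AVP1-labelled arrays and 11.66 ± 0.09 in wild type (SD, n = 3 each). At the 12 loci called between the AVP1-labelled arrays and wild type the differences were larger, at 0.33 or more in size.

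Nuclear genes that act in the chloroplast were read from lists of 105 entries, of which 91 were measured. The list of 4 genes for the Rubisco small subunit dropped out, since 0 of them were measured. In the AVP1-labelled arrays against wild type, 7 of the 91 were called (7.69%, beside 11.1% of all loci), 3 higher (3.3%, beside 6.31%) and 4 lower (4.4%, beside 4.76%), with a median difference of 0.025. The largest change was a fall of RPL9, a protein of the plastid ribosome, which read 11.55, 11.69 and 11.52 in the BRI1 line, 9.34, 9.16 and 9.66 in the AVP1-labelled arrays, and 11.67, 11.48 and 11.62 in wild type. It fell by 2.21 (limma adjusted p = 1.43e-06), more than any chloroplast locus. The other 16 measured ribosomal proteins of that list moved little, and RPL27 alone among them was called, with a fall of 0.32 (limma adjusted p = 0.011).

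Among the 18 genes for plastid transcription, the sigma factor SIGC fell by 0.41 (limma adjusted p = 0.00857) and PTAC3, which is associated with the bacterial-type polymerase, fell by 0.29 (limma adjusted p = 0.0381). Among 18 genes of RNA processing, CRR22, an RNA editing factor for chloroplast transcripts, rose by 0.48 (limma adjusted p = 0.0199). Of 10 nuclear genes of the NDH complex, which cycles electrons around photosystem I, NdhS rose by 0.31 (limma adjusted p = 0.0242) and NdhO by 0.30 (limma adjusted p = 0.0212). The 3 calls of higher nuclear genes did not hold in every fit that left out 1 array. Limma called 0 higher without replicate 1 or replicate 3 of the AVP1-labelled arrays and 1 without replicate 1 or replicate 2 of wild type. At CRR22 and NdhO every AVP1-labelled array nevertheless lay above every wild-type array. None of the 12 photosystem I genes, the 10 photosystem II genes or the 6 genes for cytochrome b6f, plastocyanin and ATP synthase was called by limma, and their differences lay between -0.090 and 0.15. Some of these genes read close to the array maximum of 14.49 to 14.57, such as PSAK with a mean of 14.36. Others read lower, such as PETE1 with 11.98. In the BRI1 line against wild type limma called 0 of the 91, with 1 at an unadjusted p under 0.05.

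Among the 31 mitochondrial loci, 4 were called in the AVP1-labelled arrays against wild type (12.9%, beside 11.1% of all loci), 3 higher (ATMG00070, ATMG00640 and ATMG01360) and 1 lower (ATMG01370, a fall of 0.85). Their median difference was 0.069. In the BRI1 line against wild type limma called 0 of the 31, with 2 at an unadjusted p under 0.05. No difference between the chloroplast, mitochondrial and nuclear sets was tested.

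**Figure D4:**
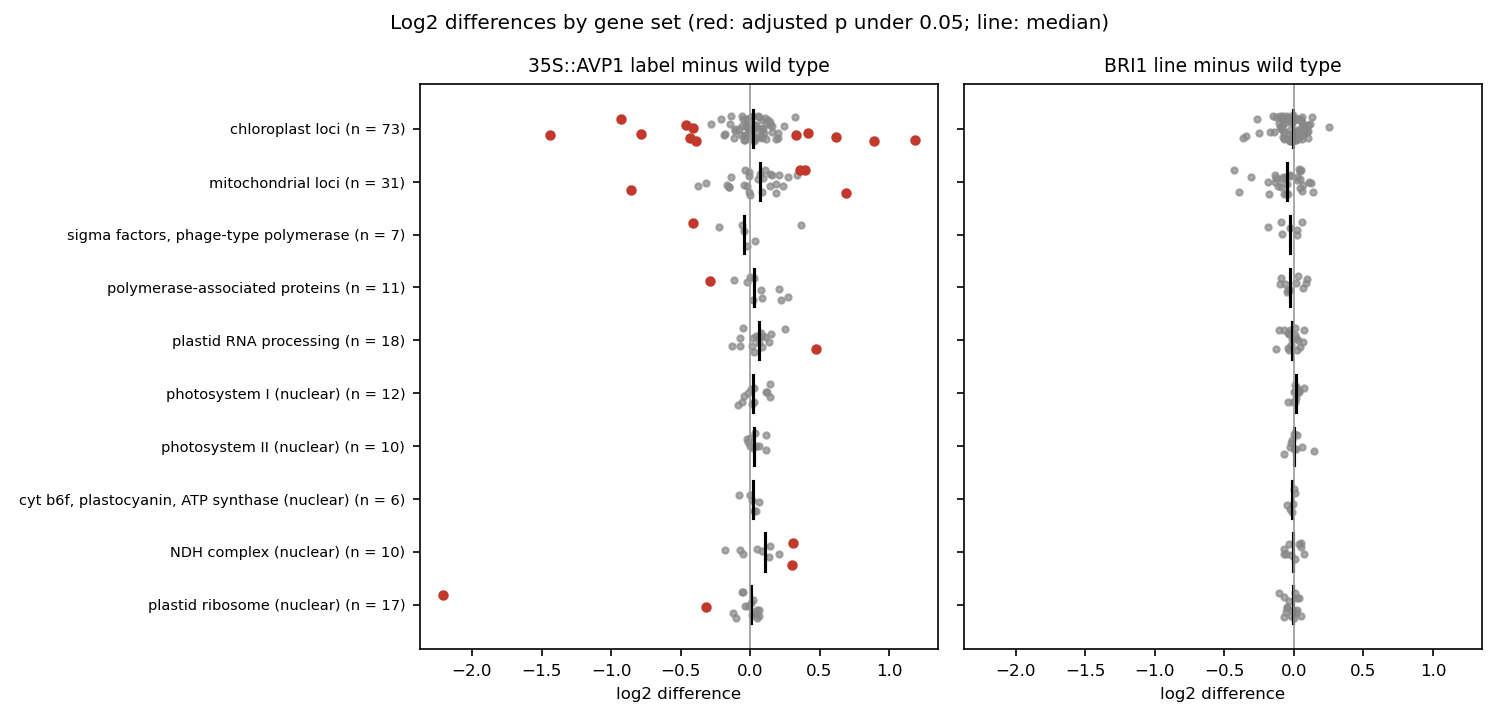
Log2 difference from wild type (horizontal axis) for the chloroplast loci, the mitochondrial loci and 8 lists of nuclear genes for plastid proteins (rows), in the AVP1-labelled arrays (left) and the BRI1 line (right). Red points have a limma adjusted p under 0.05 and black lines are medians. Red points lie on both sides of 0 in the chloroplast row on the left, RPL9 stands at -2.21 in the last row, and the right panel has 0 red points.

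Markers of other tissue differed between the groups too. PYK10, a root β-glucosidase, read 11.57, 11.39 and 11.85 in the BRI1 line, 11.79, 11.78 and 11.79 in the AVP1-labelled arrays, and 10.88, 11.05 and 10.85 in wild type. It rose by 0.86 in the AVP1-labelled arrays (limma adjusted p = 0.000698), and its difference of 0.68 in the BRI1 line was not called (limma adjusted p = 0.0902). Its mean over all arrays was 11.44, above the 95th percentile of all loci, which was 10.3. Whether root tissue was in the harvest was not tested. AG, which specifies inner floral organs, read 3.32 to 3.46 in the BRI1 line, 3.75 to 4.13 in the AVP1-labelled arrays, and 3.34 to 3.48 in wild type. It rose by 0.57 in the AVP1-labelled arrays (limma adjusted p = 0.00472), at levels near the 10th percentile of an array, which lay at 3.71 to 3.79. The floral gene AP3 differed by 0.28 there and was not called (limma adjusted p = 0.14). The part of these markers in the differences of the chloroplast loci was not tested.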

How the data were processed

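The 9 arrays were mapped to 3 genotypes by the labels. Per the submitters' processing notes, the authors used RMA, which gives log2 values, here with 1 value per locus and array. Its version, its probe map and the set of arrays it normalized were not stated in what was used here. All 20777 loci entered 1 limma fit with a mean for each genotype (limma 3.58.1 in R 4.3.3, lmFit and eBayes, 6 residual and 3.94 prior degrees of freedom), and the script was tested on simulated data. Precision is limited by the number of arrays. None of the 73 chloroplast identifiers was found in the TAIR10.1 gene table, so planned groupings by gene class, operon or polymerase were not applied. Loci named with values were those called (the 12 with the lowest p where more were; ATCG00590, the thirteenth in one comparison, is among the lowest 3 in another), otherwise the 3 with the lowest p, and the 4 brightest and 4 dimmest; ATCG00130, ATCG00300, ATCG01080 and the mitochondrial loci were named after their values were seen. The chloroplast loci and the gene lists were chosen with earlier results of these data known. Alternatives covered normalization, a filter on dim loci, the fit and leaving out each array.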

Additional observations from a re-analysis of the deposited data

How the results depend on the processing

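With 3 arrays per genotype, some counts were unstable. The number of chloroplast loci called higher in the AVP1-labelled arrays than in wild type was 5, and 3 with quantile normalization, with median centring, with only the 2 genotypes in the fit, and with each array centred on its chloroplast loci, an alternative chosen after seeing the data. The loci lost were ATCG00065 and ATCG01060, with limma adjusted p up to 0.336. Leaving out 1 array gave 3 to 5. The number called lower was 7 under every alternative. Centring on the chloroplast loci moved the median difference to -0.090 for the AVP1-labelled arrays against wild type and to 0.10 for the BRI1 line against the AVP1-labelled arrays. Leaving out 1 array gave medians of -0.019 to 0.065 for the AVP1-labelled arrays against wild type, -0.047 to 0.051 for the BRI1 line against wild type and -0.062 to 0.024 for the lines against each other. In the BRI1 line against wild type 0 chloroplast loci were called under every alternative, while the calls over all loci ranged from 3 to 29 around 17. With replicate number as a block, 5 chloroplast loci were higher and 7 lower in the AVP1-labelled arrays than in wild type. In the BRI1 line 0 differed from wild type, and between the lines 8 were higher and 6 lower. The block thus changed no call of a chloroplast locus in the AVP1-labelled arrays against wild type. Over all loci the block raised the calls of that comparison from 2300 to 2602. Over all loci, the deviations of same-numbered arrays correlated at 0.0192 to 0.482, over 0.1 in 5 of 9 pairs. Those of arrays with different numbers correlated at -0.497 to 0.491, over 0.1 in 2 of 18 pairs. Over the chloroplast loci, same-numbered arrays correlated at -0.0261 to 0.458 and arrays with different numbers at -0.466 to 0.246. For replicate 2 there, the AVP1-labelled array correlated at 0.4 with the BRI1 line and 0.435 with wild type, and those with each other at 0.427. Over all loci these pairs stood at 0.0617, 0.0749 and 0.0228. Same-numbered arrays were thus more often alike, but not every array correlated best with its own number. The labels do not say that the numbers mark shared batches, so the main fit has no block. The 3 nuclear genes called higher in the AVP1-labelled arrays than in wild type became 1 with only the 2 genotypes in the fit and 0 with centring on the chloroplast loci. The 3 called lower in the BRI1 line than in the AVP1-labelled arrays became 1 with quantile normalization and 0 with median centring or centring on the chloroplast loci, and leaving out 1 array gave as few as 0. The dim filter kept all 73 chloroplast loci. Leaving out loci that share a symbol was not run, since the loci carry no symbols.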
